A study of Saccharomyces cerevisiae with 9 samples.

Results

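Slow heating was compared with no heating in the budding yeast strain BY4742, a haploid wild-type laboratory strain of mating type MATα with the alleles his3Δ1, leu2Δ0, lys2Δ0 and ura3Δ0. The heat ramp samples were warmed from 25 °C to 50 °C at 0.5 °C per minute, kept at 50 °C for 30 min and cooled quickly back to 25 °C. The control samples were not treated. All samples came from liquid YPD cultures grown for 48 h at 25 °C with occasional gentle agitation, and each of the 3 cultures gave a heat ramp sample and a control sample. The comparison therefore rests on 6 of the 9 libraries of the series, 3 heat ramp and 3 control, taken by their treatment label. The other 3 are heat shock libraries, in which the same cultures were warmed to 50 °C at 50 °C per minute and then held for the same time. They share the estimate of the spread with the 6 libraries and are otherwise used only beside a heat ramp result. The cultures are of 1 strain. The control was taken before heating, so that heat and the time that passed cannot be told apart.

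Messenger RNA was selected by its poly(A) tail and sequenced, and 7126 features (genes and other annotated units) have a normalized count in every library, which is the number of reads on the feature divided by a size factor of the library. The question is which functions and feature classes changed beyond glycolysis, the citrate cycle and the heat shock proteins, and the genes of those lists (110 together) are set aside. A yeast cell in a rich medium spends much of its transcription on ribosomes, that is on ribosomal RNA, on ribosomal proteins and on the nucleolar factors that assemble them. Under many stresses it turns these genes down through the TOR and protein kinase A pathways, and the activators Msn2 and Msn4 turn up genes for trehalose, glycogen, antioxidants and other protectants from a short promoter element, the stress response element (STRE). Trehalose, a sugar made from glucose units, keeps proteins and membranes stable in the heat, and glycogen is the second carbohydrate reserve.

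Of 6847 features tested, those that averaged 10 or more normalized counts over the 9 libraries, 5375 (78.5%) differed between heat ramp and control in limma's moderated test with Benjamini-Hochberg adjustment, 2670 of them higher (39.0%) and 2705 lower (39.5%). With so large a share called, a count of genes has to be read against these percentages. The log2 fold change was 3 or more in 432 called features and −3 or less in 66. The libraries held 22579312 to 24415433 reads after the heat ramp and 26859792 to 27233289 in the control. The 10 most abundant features took 20.1% to 20.8% of the reads after the heat ramp and 6.14% to 6.47% in the control. The set-aside heat shock list alone took 21.2% ± 1.21 (SD, n = 3) of the reads after the heat ramp and 3.19% ± 0.219 in the control. Directions depended on the scaling. When each library was scaled to its total reads instead of its size factor, the median log2 fold change of all features moved by −0.91, and 1326 features (19.4%) were higher and 4384 (64.0%) lower. The median of a list is therefore given beside the median of all features, which was −0.01 under the size factors and −0.92 under total counts. In RNA from a whole culture, fewer cells of a type and less RNA per cell cannot be told apart.

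The labels were checked against the strain. LEU2, URA3 and LYS2, which are deleted in BY4742, had 0 reads in every library, and a count of 0 allows up to 3 reads. HIS3, which is partly deleted, had 263 ± 41.3 normalized counts after the heat ramp and 574 ± 15.0 in the control (SD, n = 3). MFALPHA1, the main α-factor gene, had 3844, 3057 and 3829 normalized counts after the heat ramp, against 13168, 15507 and 12854 in the control. The genes that are specific to a cells were not at 0. Among the 6 measured, the a-factor gene MFA1 was the lowest, with 38.1 ± 7.71 normalized counts after the heat ramp and 242 ± 54.1 in the control, and STE2, the receptor for α-factor, the highest, with 710.5 ± 189.6 after the heat ramp and 1358 ± 311 in the control. Of the 11 marker genes tested, 2 were higher after the heat ramp (SAG1, the α-agglutinin, and MFALPHA2, the second α-factor gene) and 9 were lower.

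The genes that build ribosomes fell together. Of 159 nucleolar and other ribosome assembly factors, 157 fell and 1 rose, with a median log2 fold change of −2.31 (−3.23 under total counts). Together they took 0.499, 0.801 and 0.571% of the reads in the heat ramp libraries, against 5.19, 5.04 and 5.40% in the control libraries, an 8.36-fold smaller share after the heat ramp that uses no size factor. The middle 50% of the factors lay between −2.68 and −1.90, as the plot of functional lists shows. The 2 that fell most were ROK1, a helicase of the small subunit processome, and MAK16, which is needed for the large subunit.

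MAK16 (YAL025C, chromosome I, 100225 to 101145; coordinates here and below are those of the R64 assembly) had 484, 996 and 537 normalized counts in the heat ramp libraries, against 9128, 9279.7 and 10728 in the control libraries. The groups are far apart, and the second heat ramp library was the highest of its group (log2 fold change −3.92, SE 0.21, adjusted p = 1.3e-09). ROK1 (YGL171W, chromosome VII, 182390 to 184084) had 112, 290.1 and 161 after the heat ramp and 2804, 2496 and 3014 in the control (log2 fold change −3.98, SE 0.24, adjusted p = 4.0e-09). The 1 factor that rose was GRC3, a polynucleotide kinase that acts in the processing of the spacer between ribosomal RNAs, with 3612, 2573 and 3282 normalized counts after the heat ramp and 1424, 1473 and 1669 in the control (log2 fold change 1.04, SE 0.14, adjusted p = 7.9e-06). Under total counts the difference of GRC3 was 0.12 (adjusted p = 0.39) and no longer passed the test. HMO1, an HMG-box protein of the ribosomal DNA, was the 1 factor that did not pass the test under the size factors (−0.21, adjusted p = 0.14); it was chosen for naming after its values were seen, and without the second heat ramp library it passed (−0.29, adjusted p = 0.034), as it did under TMM scaling (−0.30) and total counts (−1.12).

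The promoters of such genes are known for a pair of short elements, PAC (letters GATGAG) and RRPE (letters AAAATTTT). They are shown here, since their share among the genes that fell is described further on. Each sequence is the 300 bases that end 101 bases before the start codon in the R64 genome of RefSeq, read 5′ to 3′ on the strand of the gene, with matches to PAC and RRPE on either strand in capitals. The first is that of MAK16 (chrI:101246-101545, minus strand) and the second that of RPA135 (chrXVI:581297-581596, minus strand), the second largest subunit of RNA polymerase I.
MAK16: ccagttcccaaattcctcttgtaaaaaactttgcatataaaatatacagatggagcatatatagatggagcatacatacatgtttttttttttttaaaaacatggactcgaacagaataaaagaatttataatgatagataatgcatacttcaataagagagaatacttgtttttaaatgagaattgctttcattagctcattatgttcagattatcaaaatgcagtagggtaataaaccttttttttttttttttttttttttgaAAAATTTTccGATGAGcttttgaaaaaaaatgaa
RPA135: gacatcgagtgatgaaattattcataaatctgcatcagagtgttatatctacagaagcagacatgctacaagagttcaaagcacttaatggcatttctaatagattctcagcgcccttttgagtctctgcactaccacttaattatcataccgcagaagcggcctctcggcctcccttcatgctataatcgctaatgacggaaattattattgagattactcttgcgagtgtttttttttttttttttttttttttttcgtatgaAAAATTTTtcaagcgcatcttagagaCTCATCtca

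**Figure D1:**
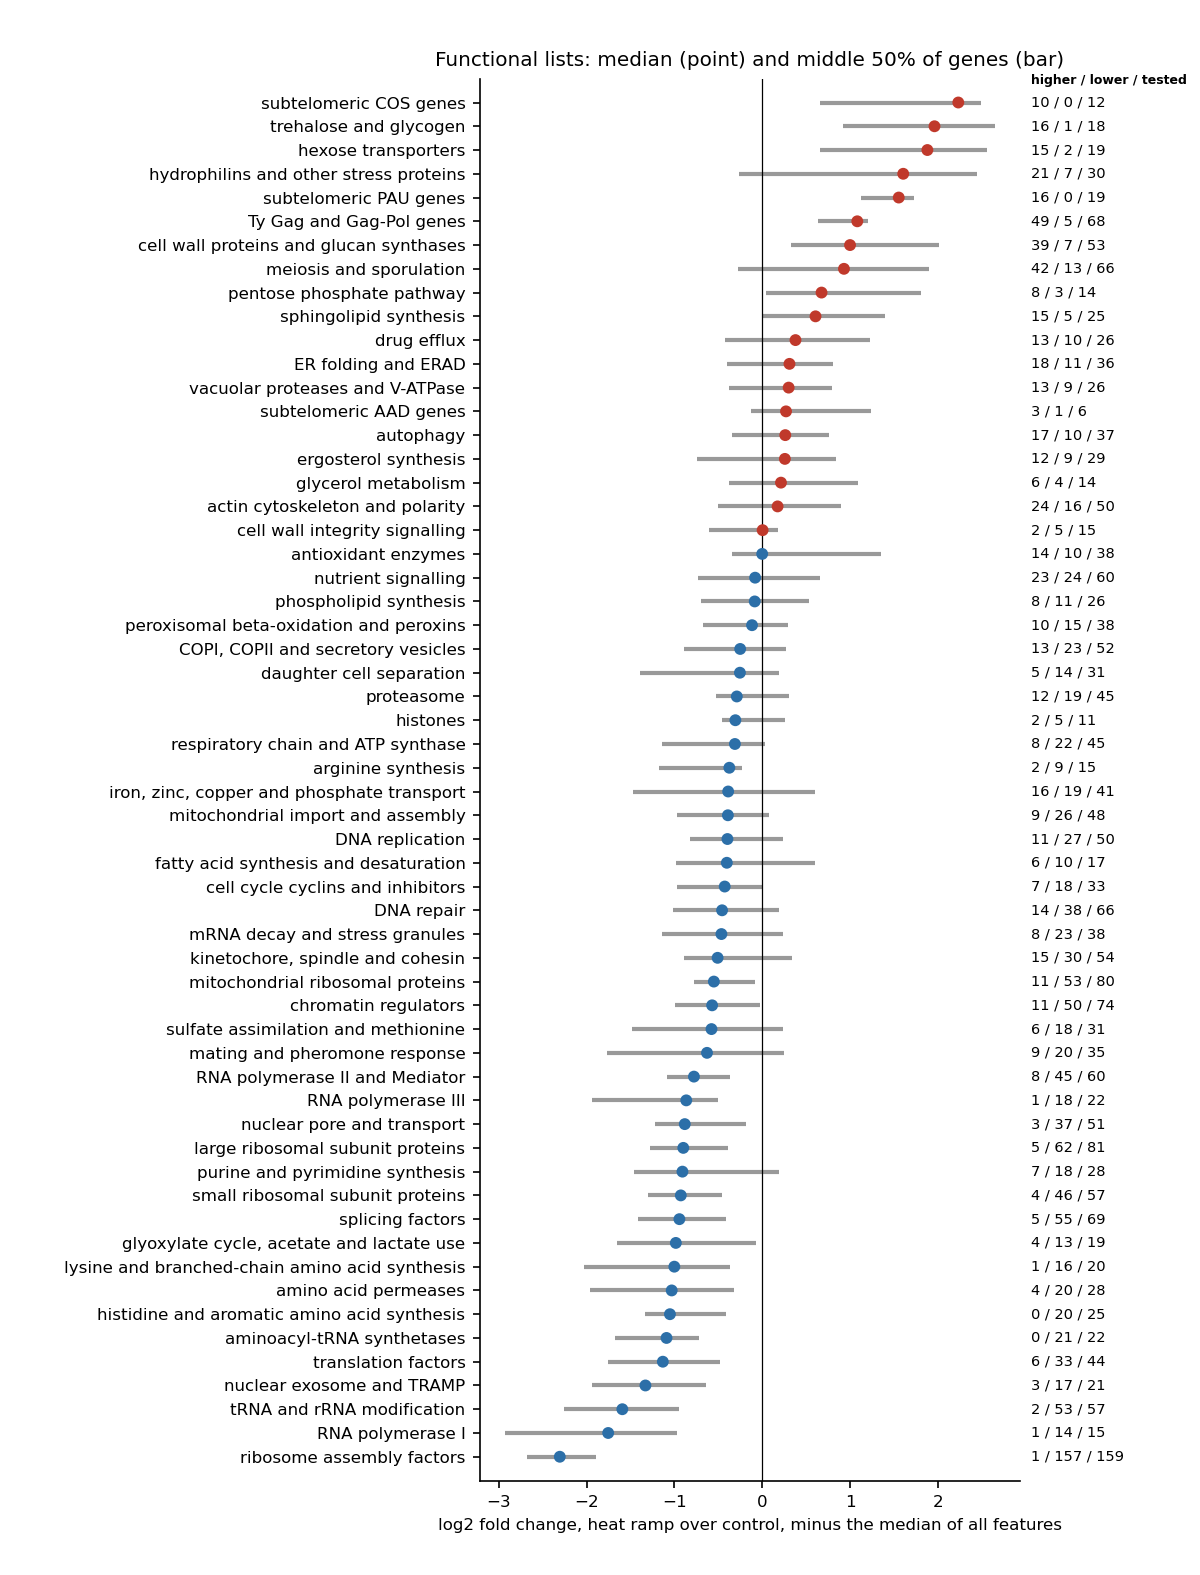
Each row is a functional list, ordered by its median; the x axis is the log2 fold change of heat ramp over control minus the median of all features, points are list medians (red above 0, blue below) and grey bars span the middle 50% of the genes. The counts at the right are genes called higher, called lower and tested. Ribosome assembly factors stand at the lower end with 157 of 159 genes lower, and COS genes and trehalose and glycogen genes at the upper end.

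The genes of RNA polymerase I, which transcribes the ribosomal DNA, fell in the same way. Of its 15 subunits and initiation factors, 14 fell, with a median of −1.76. RPA135 (YPR010C, chromosome XVI, 577585 to 581196) had 1474, 1919 and 1819 normalized counts after the heat ramp and 14779, 12940 and 16291 in the control (log2 fold change −3.08, SE 0.16, adjusted p = 8.3e-10). RPA12, the subunit for RNA cleavage, was the member that fell most, with 108, 146 and 99.9 after the heat ramp and 1255, 1410.2 and 1558 in the control (log2 fold change −3.58, SE 0.17, adjusted p = 3.9e-10). The member that rose was RRN5, a subunit of the upstream activating factor (log2 fold change 0.73, SE 0.17, adjusted p = 0.001), and its difference had the other sign under total counts (−0.18). Of 22 genes of RNA polymerase III, 18 fell and 1, TFC8, rose by 0.45 on the log2 scale under the size factors but was at −0.46 under total counts, and without the first control library its adjusted p was 0.055. RNA polymerase II with Mediator had 45 of 60 genes lower. Its most lowered member, RPO26 (log2 fold change −3.04, SE 0.16, adjusted p = 1.3e-09), is a subunit shared by all 3 nuclear RNA polymerases.

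The enzymes that modify transfer RNA and ribosomal RNA were lower in 53 of 57 cases, with a median of −1.60. The pseudouridine synthase PUS7 had 467, 862 and 429 normalized counts after the heat ramp and 5111, 4593 and 5442 in the control (log2 fold change −3.17, SE 0.20, adjusted p = 6.3e-09). The dihydrouridine synthase DUS3 fell by 3.06 on the log2 scale. TAD2, which makes inosine in the anticodon of transfer RNAs, went the other way, with 6461, 7055 and 6628 normalized counts after the heat ramp and 778, 837 and 792 in the control (log2 fold change 3.06, SE 0.21, adjusted p = 1.1e-08). TAD2 lies head to head with KAR2, the Hsp70 of the endoplasmic reticulum and a member of the list of protein folding in that compartment, whose log2 fold change was 3.77, and 325 bases separate their coding sequences. The nuclear exosome and its TRAMP helper complex, which trim and degrade nuclear RNA, had 17 of 21 genes lower and 3 higher. The catalytic subunit gene DIS3 had 899, 1131 and 898 after the heat ramp and 4915, 4484 and 5196 in the control (log2 fold change −2.32, SE 0.13, adjusted p = 2.0e-09). The 3 that rose were AIR2, NAB3 and NRD1, which bind RNA and pass it to the exosome, and of these NRD1 was at 27363, 23203 and 26943 after the heat ramp and 8630.4, 10098 and 10118 in the control (log2 fold change 1.43, SE 0.15, adjusted p = 9.0e-07). AIR2, which was named after its values were seen, and NAB3 were at −0.43 and −0.29 under total counts, so that their direction flips with the scaling.

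Ribosomal protein genes were lower as well, but by less than the assembly factors. Of 138 genes, 108 fell and 9 rose, with a median of −0.91, and their summed share of reads was 1.59, 1.76 and 1.69% after the heat ramp, against 4.79, 4.99 and 5.38% in the control. In the large subunit RPL22B and RPL27B fell most, by 2.40 and 2.33 on the log2 scale, and in the small subunit RPS19A and RPS26B, by 2.03 and 1.95. The member that rose most was RPS14B, 1 of a pair of genes for a small subunit protein, with 7591, 6289.6 and 6357 normalized counts after the heat ramp and 1898, 1954 and 2188 in the control (log2 fold change 1.74, SE 0.13, adjusted p = 2.1e-08). RPP2A, an acidic protein of the ribosomal stalk, rose too (log2 fold change 1.45, SE 0.22, adjusted p = 2.8e-05). RPS22B rose by 1.12 (0.21 under total counts, adjusted p = 0.19), and the small nucleolar RNA snR44 lies within the gene on the same strand. RPL18B rose by 0.67 under the size factors and was at −0.25 under total counts. Paralogs of ribosomal proteins share sequence, so reads may be divided between them with error.

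Genes for the step from message to protein were mostly lower in RNA level. Of 44 translation factors, 33 fell and 6 rose (median −1.14). TIF4631, the scaffold eIF4G of the cap complex, had 1460.4, 1956 and 1593 normalized counts after the heat ramp and 11374, 10775 and 12029.8 in the control (log2 fold change −2.78, SE 0.13, adjusted p = 4.3e-10). YEF3, the elongation factor of fungi that is among the most abundant messages of the control, had 42406, 61607 and 59001 after the heat ramp and 134906, 124816 and 147826 in the control (log2 fold change −1.34, SE 0.21, adjusted p = 5.3e-05). ANB1, an isoform of eIF5A that is known from cells short of oxygen, was the factor that rose most, with 1554, 1216 and 2305 after the heat ramp and 220, 186 and 212 in the control (log2 fold change 2.98, SE 0.19, adjusted p = 6.8e-09). DED1, a helicase of start codon scanning, rose by 1.06, and by 0.15 under total counts (adjusted p = 0.37). Of 22 aminoacyl-tRNA synthetases, which load amino acids on transfer RNAs, 21 fell. The number that rose was 0 under limma's adjusted threshold and at an unadjusted p under 0.05, by edgeR and DESeq2, and under each of the 3 other scalings. KRS1, for lysine, had 4072, 5023 and 5246 after the heat ramp and 17641, 19226 and 20694 in the control (log2 fold change −2.01, SE 0.15, adjusted p = 2.6e-08).

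**Figure D2:**
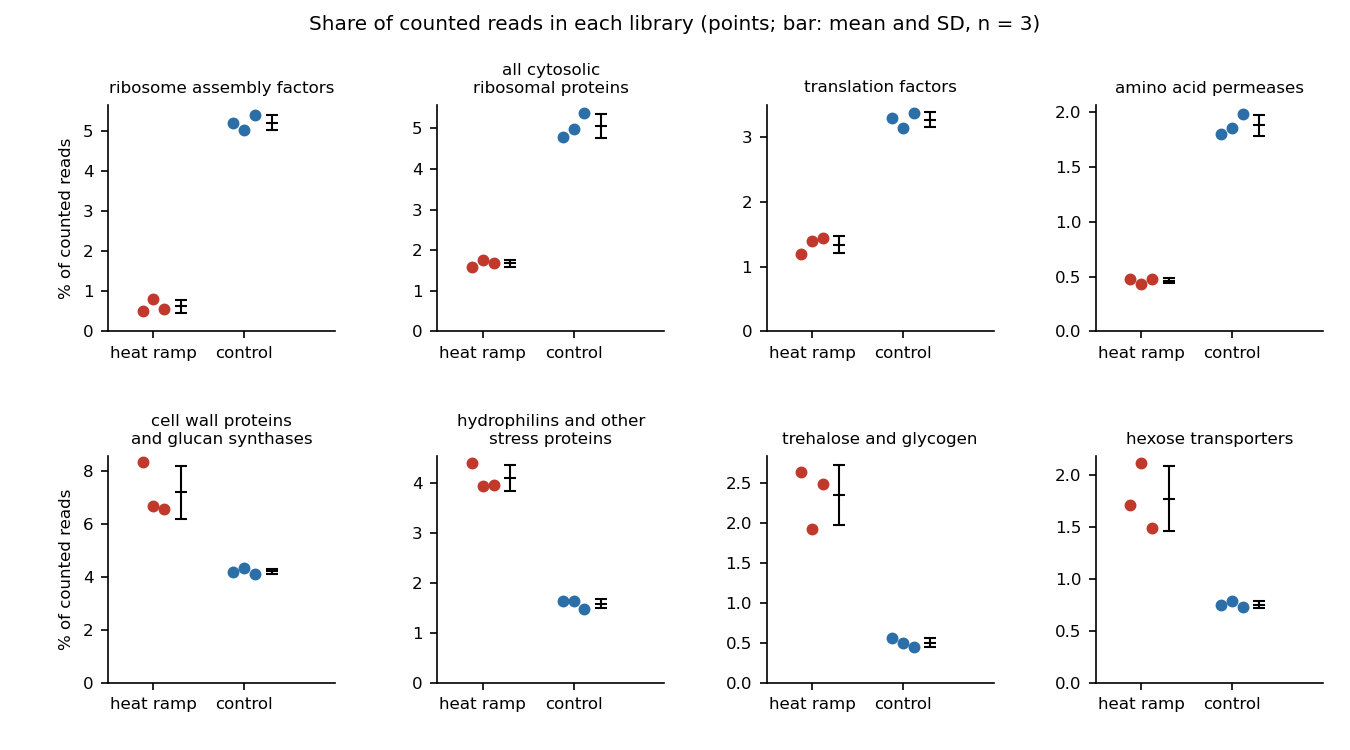
The y axis is the share of counted reads in percent, from 0, that the genes of a list took in each library, with the 3 heat ramp libraries in red at the left and the 3 control libraries in blue at the right of every panel; the bar is the mean with its SD (n = 3). The 4 upper panels, from ribosome assembly factors to amino acid permeases, are lower in all heat ramp libraries, and the 4 lower panels, among them trehalose and glycogen, are higher.

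Genes for the uptake and use of nitrogen were mostly lower. The 28 genes of amino acid, peptide and ammonium uptake took 0.475, 0.435 and 0.479% of the reads in the heat ramp libraries, against 1.80, 1.85 and 1.99% in the control libraries, and 20 of them fell. MEP2 (YNL142W, chromosome XIV, 357453 to 358952), the high-affinity ammonium transporter, had 1067, 1159 and 1406 normalized counts after the heat ramp and 35399, 25382 and 32719 in the control (log2 fold change −4.68, SE 0.16, adjusted p = 2.8e-11). GAP1 (YKR039W, chromosome XI, 515063 to 516871), the general amino acid permease, had 1209, 1460.3 and 1611 after the heat ramp and 34149, 28741 and 34685 in the control (log2 fold change −4.51, SE 0.15, adjusted p = 2.6e-11). No heat ramp library came near a control library for either gene, and the choice of both genes required groups that do not overlap. Both are textbook targets of the GATA factors of nitrogen catabolite repression, and their promoters (the same window, with GATAAG on either strand in capitals) hold 4 matches in MEP2 (chrXIV:357053-357352, plus strand), of which a pair overlap, and 3 in GAP1 (chrXI:514663-514962, plus strand).
MEP2: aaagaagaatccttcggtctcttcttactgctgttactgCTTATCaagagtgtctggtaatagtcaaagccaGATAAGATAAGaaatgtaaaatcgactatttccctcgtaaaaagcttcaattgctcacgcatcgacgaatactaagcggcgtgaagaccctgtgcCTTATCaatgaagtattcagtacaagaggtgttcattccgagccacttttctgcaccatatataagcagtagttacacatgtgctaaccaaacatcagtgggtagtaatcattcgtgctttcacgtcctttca
GAP1: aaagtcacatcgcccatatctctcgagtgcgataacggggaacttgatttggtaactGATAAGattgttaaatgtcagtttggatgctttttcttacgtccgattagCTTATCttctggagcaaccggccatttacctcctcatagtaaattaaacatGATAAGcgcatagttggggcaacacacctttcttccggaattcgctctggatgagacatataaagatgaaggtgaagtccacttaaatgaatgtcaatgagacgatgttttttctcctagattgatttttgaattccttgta
GDH1, the glutamate dehydrogenase that fixes ammonium, had 1272, 1111 and 1366 after the heat ramp and 22387, 22866 and 25327 in the control (log2 fold change −4.24, SE 0.13, adjusted p = 2.0e-11). The 4 permeases that rose were OPT2, AGP2, ALP1 and BAP2, with log2 fold changes of 1.84, 1.60, 1.32 and 0.80. Under total counts ALP1 was at 0.41 (adjusted p = 0.17) and BAP2 at −0.11; the last 2 were named after their values were seen.

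Genes of amino acid synthesis were mostly lower too. The list medians were −1.06 for histidine and aromatic amino acids, −1.01 for lysine and branched-chain amino acids and −1.04 for the permeases. They were nearer to that of all features for sulfate and methionine genes (−0.585) and for arginine synthesis (−0.38). Of 15 genes of arginine synthesis, 9 fell and 2 rose. Of 25 genes for histidine and aromatic amino acids, 20 fell. The number that rose was 0 with limma at the adjusted threshold and at an unadjusted p under 0.05, and 0 with edgeR and DESeq2, but 1 under size factors from protein-coding genes. Of 20 genes for lysine and branched-chain amino acids, 16 fell and 1 rose. ILV5, an enzyme of the common path to isoleucine and valine, had 2255, 2410.4 and 2649 normalized counts after the heat ramp and 16303, 14147 and 16257 in the control (log2 fold change −2.67, SE 0.15, adjusted p = 2.1e-09). OAC1, a mitochondrial carrier of oxaloacetate, fell by 2.81 on the log2 scale. LYS1, the last enzyme of lysine synthesis, was the gene that rose (log2 fold change 1.11, SE 0.18, adjusted p = 6.2e-05), with a difference of 0.19 under total counts (adjusted p = 0.31). MET6, the methionine synthase, had 2885, 2502 and 3582 after the heat ramp and 27199.7, 18729 and 22755 in the control (log2 fold change −2.94, SE 0.17, adjusted p = 2.0e-09), in a list of sulfate and methionine genes with 18 of 31 lower and 6 higher.

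Nucleotide genes held the protein-coding gene with the largest decrease. AAH1 (YNL141W, chromosome XIV, 359596 to 360639), the adenine deaminase of purine salvage, had 159, 156 and 437 normalized counts after the heat ramp and 8599, 9591 and 11052 in the control (log2 fold change −5.45, SE 0.31, adjusted p = 2.0e-09). The third heat ramp library was higher than the other 2 and still far below every control library. URA7, the main CTP synthase, had 323, 569 and 575 after the heat ramp and 7299, 7585 and 8371 in the control (log2 fold change −4.03, SE 0.19, adjusted p = 4.5e-10). In the list of purine and pyrimidine synthesis 18 of 28 genes fell, and the 7 that rose were led by IMD2, an IMP dehydrogenase (log2 fold change 2.08, SE 0.17, adjusted p = 5.2e-08), and by RNR3, a large subunit of ribonucleotide reductase (log2 fold change 1.76, SE 0.16, adjusted p = 2.2e-07).

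Large decreases were also found in single transporters and in the lipid enzyme OLE1, among others. FTR1 (YER145C, chromosome V, 460526 to 461740), the high-affinity iron permease, had 947, 1037 and 1142 normalized counts after the heat ramp and 26401, 18039 and 21089 in the control (log2 fold change −4.37, SE 0.15, adjusted p = 2.9e-11). PHO89, a cotransporter of sodium and phosphate, had 479, 545 and 742 after the heat ramp and 7751, 12226 and 16057 in the control (log2 fold change −4.31, SE 0.28, adjusted p = 8.2e-09), and the control libraries lay far from each other. OLE1, the only fatty acid desaturase of this yeast, had 3138, 4954 and 3492 after the heat ramp and 63965, 39487 and 50095 in the control (log2 fold change −3.73, SE 0.20, adjusted p = 1.4e-09). In its list of fatty acid synthesis and desaturation 10 of 17 genes fell and 6 rose. Under total counts 12 fell and 2 rose. The list of metal and phosphate transport as a whole was divided, with 16 of 41 genes higher and 19 lower under the size factors, and 29 lower under total counts. The metallothionein CUP1-1, which binds copper, had 286878, 327174 and 344988 after the heat ramp and 156183, 126466 and 149098 in the control (log2 fold change 1.15, SE 0.40, adjusted p = 0.017), and neither the identical copy CUP1-2 nor the antisense RNA RUF5-1 can be told from it, since the strand setting is not known. The call of CUP1-1 was lost without the second control library (adjusted p = 0.056) and without the second heat ramp library (adjusted p = 0.058), and under total counts (0.24, adjusted p = 0.56). Among the 12 protein-coding genes with the largest decreases were also NRP1, a putative RNA-binding protein (−4.42), RKI1, the ribose phosphate isomerase (−4.36), and RCK1, a protein kinase (−4.15).

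Genes for carbon sources other than glucose fell in part. Of 19 genes for the glyoxylate cycle and for the use of acetate and lactate, 13 fell. MLS1, the malate synthase, had 262, 255 and 275 normalized counts after the heat ramp and 3449, 5729 and 4795 in the control (log2 fold change −4.10, SE 0.18, adjusted p = 3.0e-10), and ICL1, the isocitrate lyase, 460.3, 572 and 564 after the heat ramp and 5149, 8822 and 7535 in the control (log2 fold change −3.72, SE 0.19, adjusted p = 8.9e-10). The 4 that rose were ACH1, CAT8, CYB2 and SIP4. CAT8 and SIP4 are activators of gluconeogenic genes, and SIP4 had 7875, 4629 and 6783 after the heat ramp and 701, 1267 and 934 in the control (log2 fold change 2.74, SE 0.23, adjusted p = 1.1e-07). CYB2, the lactate dehydrogenase, rose by 2.10. ACH1 and CAT8, with 0.70 and 1.06, were named after their values were seen, and under total counts ACH1 was at −0.22 and CAT8 at 0.14 (adjusted p = 0.45).

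Reserve carbohydrates were the metabolic genes that rose most. Of 18 genes for trehalose and glycogen, 16 rose, with a median of 1.95 (1.04 under total counts), and their share of reads was 2.64, 1.93 and 2.49% after the heat ramp, against 0.557, 0.498 and 0.445% in the control. TSL1 (YML100W, chromosome XIII, 70624 to 73920), the large regulatory subunit of trehalose synthase, had 450665, 271216 and 442882 normalized counts after the heat ramp and 9931, 5068 and 4735 in the control (log2 fold change 5.93, SE 0.27, adjusted p = 3.3e-10). TPS1, the catalytic subunit, had 82555, 61586 and 75844 after the heat ramp and 9176, 6687 and 6384 in the control (log2 fold change 3.31, SE 0.17, adjusted p = 1.1e-09). In both genes the second heat ramp library was the lowest of its group and the first control library the highest. GLG2, a glycogenin that starts the glycogen chain, was the 1 gene that fell (log2 fold change −0.44, SE 0.12, adjusted p = 0.0053), and with size factors from protein-coding genes its adjusted p was 0.067. The promoter of TSL1 (chrXIII:70224-70523, plus strand) and that of RGI1 (chrV:291666-291965, plus strand), a gene described next, are shown with the STRE (AGGGG on either strand) in capitals. TSL1 holds 5 matches and RGI1 3.
TSL1: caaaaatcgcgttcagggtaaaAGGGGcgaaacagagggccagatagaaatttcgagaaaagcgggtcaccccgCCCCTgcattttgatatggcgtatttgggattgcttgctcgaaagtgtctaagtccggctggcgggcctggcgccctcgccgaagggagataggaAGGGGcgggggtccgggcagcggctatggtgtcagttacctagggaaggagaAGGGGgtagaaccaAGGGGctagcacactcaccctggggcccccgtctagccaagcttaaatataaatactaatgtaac
RGI1: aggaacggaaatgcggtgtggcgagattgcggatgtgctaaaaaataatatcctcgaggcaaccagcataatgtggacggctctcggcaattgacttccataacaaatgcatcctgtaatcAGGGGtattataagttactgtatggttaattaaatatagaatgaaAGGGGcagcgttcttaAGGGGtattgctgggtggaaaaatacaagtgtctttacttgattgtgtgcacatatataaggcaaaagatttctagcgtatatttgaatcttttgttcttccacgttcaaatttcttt

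The 12 protein-coding genes with the largest increases were of mixed function. RGI1 (YER067W, chromosome V, 292066 to 292551), named for its induction in respiratory growth, had 51700, 47187 and 47125 normalized counts after the heat ramp and 1074, 692 and 578 in the control (log2 fold change 6.01, SE 0.20, adjusted p = 2.7e-11). GRE3, an aldose reductase, had 69641, 50011 and 76240.5 after the heat ramp and 1704, 1170.5 and 1177 in the control (log2 fold change 5.59, SE 0.20, adjusted p = 3.7e-11). RTC3, a small protein related to the ribosome assembly factor Sdo1, had 54260.4, 49026 and 48048 after the heat ramp and 1789, 1674 and 1567 in the control (log2 fold change 4.91, SE 0.12, adjusted p = 2.1e-12). Each of these genes differed by more than 4 log2 units, and the groups did not overlap. Both follow from the choice of the genes, which took the largest changes among genes without overlap. ATG41, which is needed for autophagy, had 220299, 161834 and 152712 after the heat ramp and 3332, 4222 and 2964 in the control (log2 fold change 5.66, SE 0.22, adjusted p = 8.7e-11). MGA1, a protein with a domain like that of the heat shock factor, rose by 4.65, the small open reading frame YER053C-A by 5.99 and the putative dehydrogenase YDL114W by 4.79. Hydrophilins are small soluble proteins made in dryness and starvation. The list of hydrophilins and other stress proteins, in which GRE3 and RTC3 rose most, had 21 of 30 genes higher and 7 lower. GRE1, itself a hydrophilin, was at 2915, 1739 and 2944 after the heat ramp and 6861, 10050 and 10363 in the control (log2 fold change −1.86, SE 0.27, adjusted p = 2.1e-05).

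**Figure D3:**
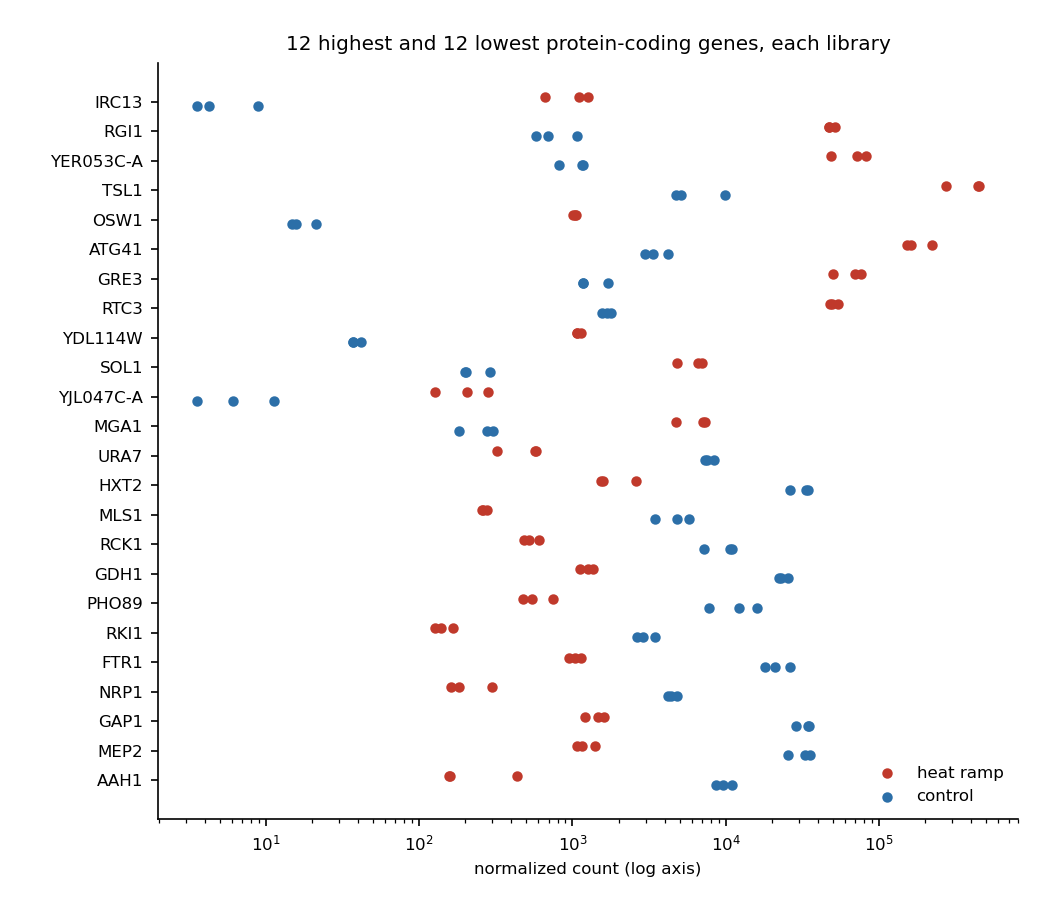
The x axis is the normalized count on a log scale, and each row is 1 of the 12 protein-coding genes with the highest or the lowest log2 fold change outside the set-aside lists, with the 3 heat ramp libraries in red above the 3 control libraries in blue. Heat ramp and control libraries do not overlap in any row, which the choice of the genes required; IRC13 and YJL047C-A overlap small nucleolar RNA genes.

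Hexose transporters rose with 1 large exception. Of 19 transporters and sensors, 15 rose and 2 fell, HXT2 and RGT2 (median 1.87). HXT6 (YDR343C, chromosome IV, 1159608 to 1161320), a high-affinity glucose transporter, had 258224, 316939 and 220985 normalized counts after the heat ramp and 26806, 27617 and 22355 in the control (log2 fold change 3.36, SE 0.19, adjusted p = 1.7e-09), and its near copy HXT7 cannot be told from it by short reads. HXT2 (YMR011W, chromosome XIII, 288079 to 289704), another transporter of high affinity, went the other way, with 1535, 1579 and 2585 after the heat ramp and 26343, 34134 and 33580.3 in the control (log2 fold change −4.08, SE 0.21, adjusted p = 1.0e-09). GAL2, the galactose transporter, rose at a low level, with 312, 259 and 299.8 after the heat ramp and 20.5, 34.1 and 25.0 in the control (log2 fold change 3.43, SE 0.25, adjusted p = 1.8e-08). RGT2, a glucose sensor without transport, fell by 0.59 on the log2 scale.

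The genes of the pentose phosphate pathway did not move one way. Of 14 genes 8 rose and 3 fell, and the median of 0.67 turned to −0.25 under total counts. SOL1, of the family of phosphogluconolactonases, had 6541, 4790.1 and 6973 normalized counts after the heat ramp and 291, 202 and 198 in the control (log2 fold change 4.73, SE 0.18, adjusted p = 8.2e-11). SOL4 of the same family rose by 2.98. RKI1 had 126, 167 and 139 after the heat ramp and 2629, 2874 and 3443 in the control (log2 fold change −4.36, SE 0.16, adjusted p = 7.4e-11), and TKL1, the main transketolase, was also lower (log2 fold change −0.76, SE 0.16, adjusted p = 6.3e-04). The third gene that fell, SHB17 (−0.33), a sugar bisphosphatase, was named after its values were seen, and its call was lost without the first or the third library of either group (adjusted p = 0.065 to 0.13) and with size factors from protein-coding genes (adjusted p = 0.30).

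The genes of the cell wall took more of the reads as a sum, in which the most abundant genes weigh most. The 53 cell wall proteins and glucan synthases held 8.35, 6.68 and 6.55% of the reads after the heat ramp, against 4.17, 4.32 and 4.11% in the control, and 39 rose. Under total counts 24 rose and 19 fell, so that the balance of the list depends on the scaling. SED1 (YDR077W, chromosome IV, 600793 to 601809), a mannoprotein of the wall of stationary cells, had the largest share of reads of any protein-coding gene outside the set-aside lists in both groups, with no correction for length. It had 1289803, 951726 and 895713 normalized counts after the heat ramp and 225357, 244472 and 226854 in the control (log2 fold change 2.15, SE 0.31, adjusted p = 2.1e-05). YGP1, a secreted glycoprotein, had 506091, 421889 and 423383 after the heat ramp and 88741, 77320.4 and 75576 in the control (log2 fold change 2.48, SE 0.22, adjusted p = 1.5e-07). TIR1, a mannoprotein known from cold and from lack of oxygen, had 1679, 849 and 2363 after the heat ramp and 132, 102 and 106 in the control (log2 fold change 3.72, SE 0.30, adjusted p = 6.0e-08), with a wide spread in the heat ramp. KNH1, of the synthesis of one type of glucan, fell to 145, 143 and 203 after the heat ramp, against 1766, 2201 and 2068 in the control (log2 fold change −3.62, SE 0.20, adjusted p = 1.7e-09). PMA1, the proton pump of the plasma membrane, had 389700.4, 411985 and 456216 after the heat ramp and 149584, 134014 and 142808 in the control (log2 fold change 1.56, SE 0.25, adjusted p = 5.5e-05).

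Sphingolipid genes had 15 of 25 higher and 5 lower under the size factors and 9 higher and 12 lower under total counts. The members that rose most were the ceramidases, which break ceramide down. YPC1 had 23599, 19802 and 23835 normalized counts after the heat ramp and 2698, 1717 and 1807 in the control (log2 fold change 3.46, SE 0.17, adjusted p = 6.4e-10), and YDC1 23745, 22190.2 and 22065 after the heat ramp and 4764, 4811 and 4623 in the control (log2 fold change 2.26, SE 0.11, adjusted p = 7.2e-10). In the endoplasmic reticulum, KAR2 had 322966, 318662 and 310071 after the heat ramp and 26096, 21662 and 22432 in the control (log2 fold change 3.77, SE 0.26, adjusted p = 1.1e-08). HAC1, the transcription factor of the unfolded protein response, had 18348, 16956 and 19879 after the heat ramp and 1485, 1655 and 1332 in the control (log2 fold change 3.63, SE 0.15, adjusted p = 1.5e-10). The list of folding and degradation in this compartment was nevertheless divided, with 18 of 36 genes higher and 11 lower, and its median of 0.30 turned to −0.61 under total counts. Outside the set-aside heat shock list, BTN2, which sorts misfolded proteins, had 307961, 379921 and 367772 after the heat ramp and 16018, 15426 and 13245 in the control (log2 fold change 4.56, SE 0.39, adjusted p = 9.7e-08).

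Regulators of nutrient response did not move one way. Of 60 genes, 23 rose and 24 fell, and 7 rose and 43 fell under total counts. Of all 5912 nuclear protein-coding genes tested, 33.27% rose and 45.25% fell under the size factors, and 814 rose and 4250 fell under total counts. IRA2, which turns Ras off, had 126835, 86318 and 113766 normalized counts after the heat ramp and 9700.5, 6429 and 7214 in the control (log2 fold change 3.81, SE 0.22, adjusted p = 2.6e-09), whereas RAS1 had 750.5, 946 and 1001 after the heat ramp and 4024, 4202 and 4980.1 in the control (log2 fold change −2.29, SE 0.16, adjusted p = 1.1e-08). MIG1, a repressor of genes that glucose keeps off, fell by 2.17 on the log2 scale. RPN4, the transcription factor of the proteasome genes, had 34519, 37691 and 34935 after the heat ramp and 7216, 7883 and 6821 in the control (log2 fold change 2.29, SE 0.17, adjusted p = 3.3e-08). Of the 45 proteasome genes themselves 19 fell (42.22%) and 12 rose (26.67%), both shares below those of all nuclear protein-coding genes. The median was −0.30, against −0.20 for all nuclear protein-coding genes. Under total counts 39 proteasome genes fell and 4 rose. Without the second heat ramp library 29 of them fell. In the list of autophagy, 17 of 37 genes rose and 10 fell under the size factors. Under total counts 1, ATG41, rose and 24 fell, and the share that fell was below that of all nuclear protein-coding genes. Of 26 vacuolar genes 13 rose and 9 fell. Under total counts 3 rose and 15 fell, and here too the share that fell was below that of all nuclear protein-coding genes. The member that rose most was TFS1, the inhibitor of carboxypeptidase Y, with 28715, 21892 and 25157 after the heat ramp and 2509, 2266 and 1991 in the control (log2 fold change 3.48, SE 0.14, adjusted p = 1.1e-10).

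Several lists of nuclear genes were mostly lower, where 45.25% of all nuclear protein-coding genes fell. Splicing factors fell in 55 of 69 cases (79.7%) and the nuclear pore and its transport factors in 37 of 51 (72.55%). Chromatin regulators fell in 50 of 74 (67.6%), and DNA repair, closer to that background, in 38 of 66 (57.6%). PRP43, a helicase of both splicing and ribosome assembly, had 1267, 2024 and 1611 normalized counts after the heat ramp and 13518, 13209 and 14929 in the control (log2 fold change −3.11, SE 0.16, adjusted p = 7.6e-10). KAP95, an importin, stood out upward among the transport factors, with 17457, 13079.5 and 19740.1 after the heat ramp and 3213, 3192 and 3469.9 in the control (log2 fold change 2.33, SE 0.15, adjusted p = 5.8e-09). HUG1, an inhibitor of ribonucleotide reductase that is known from DNA damage, was the repair gene that rose most, with 362, 439 and 457 after the heat ramp and 36.8, 64.9 and 42.1 in the control (log2 fold change 3.14, SE 0.22, adjusted p = 1.2e-08). Of the histones, 5 of 11 genes fell (45.45%, the share of the background) and 2 rose. The pair of genes for H2B parted, HTB1 at −1.29 and HTB2 at 1.50.

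Genes of cell division and of mating were lower in part. Of 35 genes of mating and the pheromone response 20 fell (57.1%) and 9 rose. Of 33 cyclins and their inhibitors 18 fell (54.55%) and 7 rose, where 45.25% of all nuclear protein-coding genes fell. Among those that fell was FAR1, the cyclin kinase inhibitor of pheromone arrest, with 369.8, 371 and 493 normalized counts after the heat ramp and 3977, 3501 and 4106 in the control (log2 fold change −3.24, SE 0.13, adjusted p = 1.5e-10). Of 31 genes of daughter cell separation 14 fell (45.16%, the share of that background) and 5 rose. The members that fell most, SCW11 and DSE1, fell by 2.83 and 2.66 on the log2 scale. ACT1, the actin gene that is often used as a constant standard, rose under every scaling tried, with 87528, 80607 and 93659 after the heat ramp and 18996, 19084 and 18956 in the control (log2 fold change 2.20, SE 0.15, adjusted p = 9.3e-09, and 1.28 under total counts). STE24, a protease that matures a-factor and clears blocked translocons, had 27552, 20733 and 25450.1 after the heat ramp and 2036, 2306 and 1950.4 in the control (log2 fold change 3.54, SE 0.13, adjusted p = 8.2e-11).

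Mitochondrial functions encoded in the nucleus are read against all nuclear protein-coding genes, of which 33.27% were higher and 45.25% lower. Of 80 mitochondrial ribosomal proteins 53 fell and 11 rose (median −0.56). This list also holds 1 gene of the mitochondrial genome, which is among the 11 that rose (log2 fold change 1.79, control mean 6.28). Of 48 genes of import and assembly 26 fell and 9 rose. The respiratory chain, with 22 of 45 lower (48.9%) and 8 higher, was near that background in the share that fell. CYC7, the cytochrome c isoform of low oxygen and stress, rose, with 17169, 17512 and 13466 normalized counts after the heat ramp and 2051, 1959 and 1811 in the control (log2 fold change 3.04, SE 0.14, adjusted p = 4.3e-10). Antioxidant enzymes were divided, with 14 of 38 higher and 10 lower. Under total counts, where 64.0% of all features were lower, 10 were higher and 24 lower. AHP1, a peroxiredoxin, had 35946, 21418 and 48982 after the heat ramp and 6281, 5082 and 5083 in the control (log2 fold change 2.62, SE 0.24, adjusted p = 2.2e-07).

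Genes that are usually silent or low were mostly higher under the size factors. Of 66 genes of meiosis and sporulation, which a haploid does not need, 42 rose and 13 fell under the size factors, and 24 rose and 23 fell under total counts. OSW1, of the outer spore wall, had 1009, 1038 and 1049 normalized counts after the heat ramp and 14.9, 21.2 and 15.7 in the control (log2 fold change 5.84, SE 0.20, adjusted p = 3.7e-11). REC114, of meiotic recombination, had 909.6, 769 and 972 after the heat ramp and 58.7, 71.7 and 47.8 in the control (log2 fold change 3.88, SE 0.21, adjusted p = 1.4e-09). SPO71, of the prospore membrane, fell to 329, 509 and 382 after the heat ramp, against 1695, 1700.4 and 1791 in the control (log2 fold change −2.11, SE 0.16, adjusted p = 2.5e-08).

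Of the families near chromosome ends, COS and PAU genes were mostly higher under the size factors, and the 6 AAD genes, named for aryl alcohol dehydrogenases, had 3 higher and 1 lower (0 to 1 lower with 1 library left out), with a median of 0.26 that turned to −0.65 under total counts. All 12 COS genes, of membrane protein turnover, passed the filter on low counts, and 10 rose (median 2.23, and 1.31 under total counts, where 8 rose and 3 fell). COS3 had 10371, 10690.1 and 9299.9 normalized counts after the heat ramp and 1600.5, 1614 and 1451 in the control (log2 fold change 2.70, SE 0.13, adjusted p = 4.3e-10). Of 24 seripauperin genes, small wall proteins of low oxygen, 19 passed the filter and 16 of these rose, or 8 under total counts. Among the 19, 4 had a control mean under 10 and passed through the heated libraries. PAU13 had 184, 125 and 161 normalized counts after the heat ramp and 16.3, 13.7 and 22.1 in the control (log2 fold change 3.11, SE 0.31, adjusted p = 4.8e-07). The 91 genes of Ty retrotransposons took 1.32% ± 0.213 (SD, n = 3) of the reads after the heat ramp and 1.14% ± 0.0507 in the control, and 49 of the 68 that passed the filter rose under the size factors but 10 under total counts. Members of these families are near copies, so the level of a single copy is uncertain.

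Every class of non-coding RNA that could be tested had more members higher than lower under the size factors, in libraries that select poly(A) tails and count these RNAs at a low level. Small nuclear RNAs took 0.164% ± 0.0259 (SD, n = 3) of the reads after the heat ramp and 0.00564% ± 0.00053 in the control, 29.0-fold more. LSR1, the U2 RNA of the spliceosome (chromosome II, 680688 to 681862), had 45901, 41014 and 62838 normalized counts after the heat ramp and 846, 747 and 853 in the control (log2 fold change 5.91, SE 0.20, adjusted p = 3.2e-11), and was named, like snR19, after its values were seen. The U1 RNA snR19 had 7626, 8330.1 and 7545 after the heat ramp and 322, 201 and 203 in the control (log2 fold change 5.05, SE 0.16, adjusted p = 2.6e-11).

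Small nucleolar RNAs, which guide the modification of ribosomal RNA, took 0.281% ± 0.0163 of the reads after the heat ramp and 0.0511% ± 0.00195 in the control, and 73 of 76 rose. The one with the largest increase, snR190, had 15424, 14404 and 12899.5 normalized counts after the heat ramp and 212, 178 and 163 in the control (log2 fold change 6.27, SE 0.13, adjusted p = 5.0e-13). RPR1 and NME1 are the RNA parts of RNase P and RNase MRP. NME1 had 2737, 1941 and 2513 after the heat ramp and 40.3, 39.6 and 44.9 in the control (log2 fold change 5.80, SE 0.18, adjusted p = 2.0e-11) and RPR1 975, 636 and 1863 after the heat ramp and 26.9, 10.9 and 18.5 in the control (log2 fold change 5.81, SE 0.37, adjusted p = 5.4e-09). Transfer RNA genes of the nucleus, 217 of 275 of which passed the filter on low counts, took 0.0637% ± 0.00372 of the reads after the heat ramp and 0.00699% ± 0.000175 in the control, and 214 of those that passed rose. Of the 217, 191 had a control mean under 10 and passed the filter through the heated libraries, so that this number follows from the filter. Against the heat shock, 57 were higher after the ramp and 2 lower, where 35.9% of all features were higher and 36.1% lower.

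RNAs of the mitochondrial genome were at low levels. Its open reading frames took 0.0263% ± 0.00626 of the reads after the heat ramp and 0.00656% ± 0.00187 in the control, and 18 of 28 could be tested. The 21S ribosomal RNA, 21S_RRNA, had 4227, 7222 and 4443 normalized counts after the heat ramp and 2285, 3584 and 2832 in the control (log2 fold change 0.85, SE 0.20, adjusted p = 0.0014), and under total counts its difference was −0.07. Open reading frames that the RefSeq annotation does not list, 679 in all, had 367 of 583 tested higher and 28 lower, and 206 higher and 121 lower under total counts. Several of the largest increases cannot be assigned to one transcript. IRC13, the protein-coding feature with the largest increase (log2 fold change 7.31, SE 0.33, adjusted p = 3.4e-10), overlaps on the same strand the U3 small nucleolar RNA snR17a, which had a log2 fold change of 5.10. YJL047C-A overlaps snR60 in the same way. The strand setting of the counting is not given in the sources used here.

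**Figure D4:**
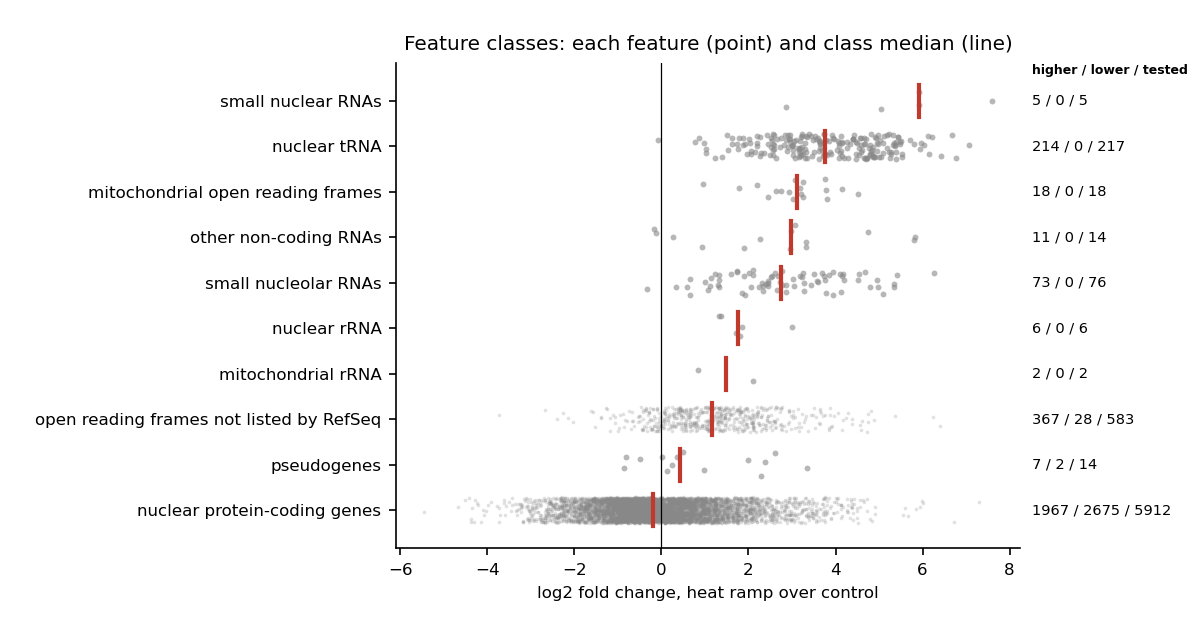
The x axis is the log2 fold change of heat ramp over control; each grey point is a tested feature and the red line the median of its class. The counts at the right are features called higher, called lower and tested. Small nuclear RNAs and transfer RNAs lie furthest to the right, and nuclear protein-coding genes are centred near 0.

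The position of a gene and its level in the control went with its change. Among protein-coding genes outside the set-aside lists, the 104 genes under 10 kb from a chromosome end had a median log2 fold change of 0.91, and the 4373 genes over 100 kb from an end one of −0.26. With genes of a mean control count under 100 left out, the first median was 0.50 (62 genes) and the second −0.33 (4128 genes). In 5 equal groups by control level, from the lowest to the highest, the medians were 0.67, −0.23, −0.34, −0.42 and −0.63. Across 5802 genes, which are not independent replicates, Spearman's rho of the log2 fold change with the control level was −0.33, and the control level is also part of the fold change. With gene length it was −0.10 and with GC content 0.08. Ribosomal proteins left out, genes with an intron had a median of 0.39 (224 genes) and genes without one −0.21 (5440 genes).

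Neighbouring genes were compared by their orientation, as a description. For the 1447 pairs that are transcribed away from each other, Spearman's rho between the log2 fold changes of the neighbours was 0.31, for 2651 tandem pairs 0.21 and for 1437 pairs that point at each other 0.04; a pair shares the libraries and the size factors, and the strand of counting is not known. Within the pairs transcribed away from each other, rho was 0.35 for the 708 with a gap under 500 bases and 0.25 for the 739 with a wider gap.

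The promoter elements shown above, and others named below, were counted in all 5987 windows of the same length. The STRE (AGGGG) was found in 23.5% of all windows, in 38.2% of those of genes with a log2 fold change over 3 and in 15.1% of those under −2. Genes with no STRE had a median log2 fold change of −0.31 (4456 genes), with 1 match 0.09 (1122 genes), with 2 matches 0.64 (180 genes) and with 3 or more 1.23 (43 genes). In the trehalose and glycogen list 14 of 18 windows held it (77.8%). The list of the glyoxylate cycle and of acetate and lactate use, with 13 of 19 genes lower, held it in 47.4%. The cell wall list, with 39 of 53 genes higher, held it in 11.3%. In the list of hydrophilins and other stress proteins, the 20 genes with a match had a median of 2.13 and the 10 without one −0.34. PAC was found in 18.4% of all windows and in 58.5% of those of assembly factors, and RRPE in 9.07% of all and 64.8% of those of assembly factors. Genes with both had a median of −1.69 (222 genes), and with assembly factors and RNA polymerase I left out −0.96 (141 genes), against −0.12 in genes with neither (4430 genes). Within the assembly factors the median was −2.44 in the 74 genes with both and −2.26 in the 37 genes with neither, of which 94.6% fell. GATAAG was found in 14.0% of all windows and in 42.9% of those of amino acid permeases. It was also found in 42.3% of those of vacuolar genes and 33.3% of those of trehalose and glycogen. Both of these lists had more genes higher than lower under the size factors. TGACTC, the site of Gcn4, was found in 8.47% of all windows and in 60.0% of those of lysine and branched-chain genes. Its share was 53.6% in purine and pyrimidine synthesis and 40% in histidine and aromatic amino acid synthesis. It was highest, 73.3%, in arginine synthesis, whose median log2 fold change was only −0.38. TTCNNGAA (HSE, with N for any letter) was found in 13.8% of all windows. It was in 22.8% of those of genes with a log2 fold change over 3 and in 14.6% of those under −2. Meiosis and sporulation genes with GGCGGC (URS1) had a median of 0.70 and those without it 1.00. With CACAAA (MSE) their median was 0.62 and without it 1.00. A match is a run of letters, searched on both strands, and not a measured binding site.

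**Figure D5:**
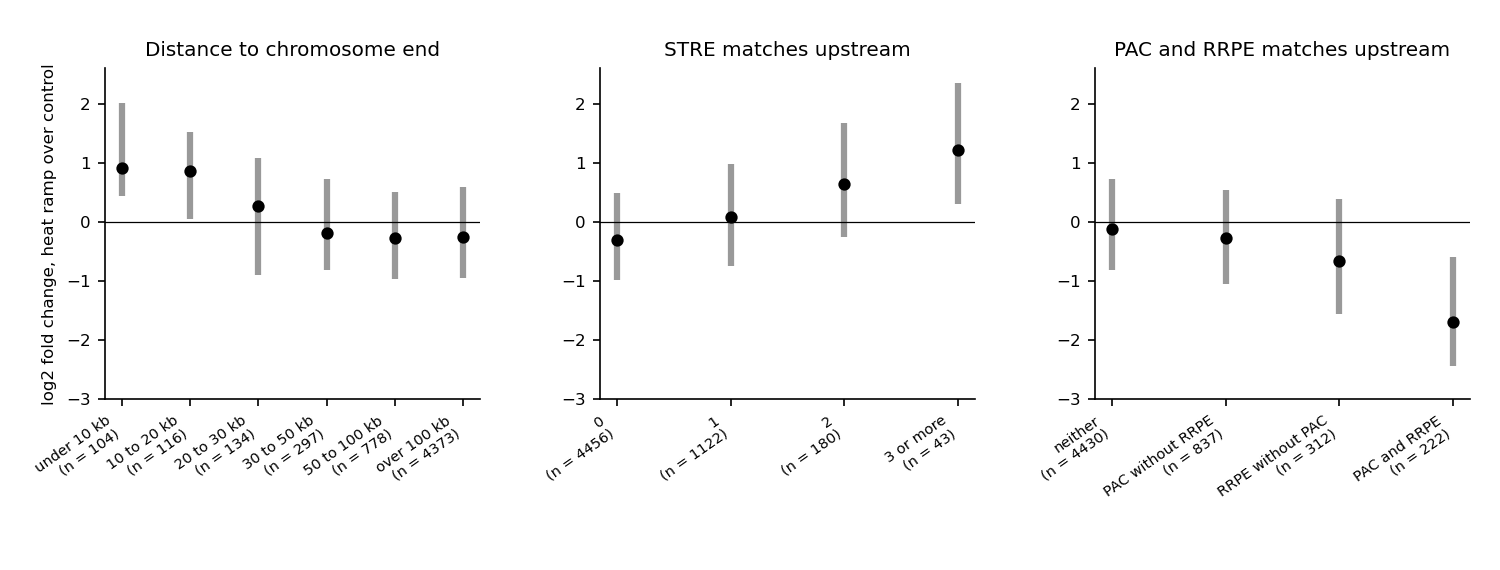
The y axis is the log2 fold change of heat ramp over control; points are medians over protein-coding genes outside the set-aside lists, bars span the middle 50% of the genes, and the number of genes stands under each group. The left panel bins genes by distance to the chromosome end, the middle panel by the number of STRE matches and the right panel by PAC and RRPE matches upstream. Medians lie highest nearest the ends and with 3 or more STRE, and lowest with both PAC and RRPE.

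The same genes were tested between heat ramp and heat shock, a comparison that shares the heat ramp libraries with the one above, in which 2459 features (35.9%) were higher in the heat ramp libraries and 2470 (36.1%) lower. Of 159 assembly factors 156 were lower after the heat ramp than after the heat shock, and of 18 trehalose and glycogen genes 16 were higher. TSL1 had 450665, 271216 and 442882 normalized counts after the heat ramp and 5451, 4088 and 4851 after the heat shock (log2 fold change 6.31, SE 0.27, adjusted p = 1.9e-10). MAK16 had 484, 996 and 537 after the heat ramp and 7459, 6642 and 8049 after the heat shock (log2 fold change −3.53, SE 0.21, adjusted p = 3.5e-09). GAP1 had 1209, 1460.3 and 1611 after the heat ramp and 37444, 43819 and 38135 after the heat shock (log2 fold change −4.81, SE 0.15, adjusted p = 1.3e-11). For these 3 genes the heat ramp libraries thus lay apart from both other groups. RPP2A, which rose against the control, was at 0.01 between heat ramp and heat shock (adjusted p = 0.97), and GRE1, which fell against the control, at −0.24 (adjusted p = 0.44). Mitochondrial ribosomal proteins, mostly lower than in the control, had 16 of 80 higher and 24 lower than after the heat shock.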

How the data were processed

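Cultures of BY4742 gave poly(A)-selected RNA for 9 libraries, sequenced as single reads. The authors trimmed reads with Trimmomatic, aligned them to sacCer3 with Bowtie2 and deposited normalized counts, a signal made of reads per feature divided by a DESeq2 size factor. The counting tool, its annotation and its strand setting are not given in the sources used here. All values were whole multiples of 1 read (100%, tolerance 0.01), so reads were recovered. The authors' tables of fold changes and p-values were not used. Genes were placed with the RefSeq annotation of R64 (the sacCer3 build), which matched 6162 of 7126 identifiers.

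Features with a mean of at least 10 over 9 libraries were tested as log2(normalized count + 1) in 1 limma model (version 3.58.1, R 4.3.3, trended prior, group only, two-sided), with Benjamini-Hochberg adjustment over all 6847 features and a threshold of 0.05. Fold changes of low features are understated on that scale. Errors of normalized counts are SDs and those of fold changes limma standard errors. An exact permutation test of 3 against 3 cannot go below 0.1. Replicates differed beyond counting error, and intervals for counts of 0 (3 reads) cover counting error only. Total counts, TMM (edgeR 4.0.16), size factors from protein-coding genes, 2 other pseudocounts, 2 other filters, protein-coding features alone, the 6 libraries alone, edgeR, DESeq2 1.42.0, a culture block and each library left out were tried. The model was also run on simulated counts in which few genes changed. That run cannot speak for data in which most features are called.

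Replicate numbers pair samples of 1 culture by origin. The deviations from the group means of same-numbered heat ramp and control libraries had correlations of 0.03, −0.20 and −0.01 over the features tested. Named genes are the 12 highest and 12 lowest log2 fold changes among nuclear protein-coding genes outside the set-aside lists, called, with a mean of at least 100 over the 6 libraries and no overlap between groups. They are also the 2 highest and 2 lowest called in each list and each other class, the 5 such genes with the largest share of reads in each group, and the strain markers. Genes named outside this rule are said to be so in the text. Members and lists were chosen with earlier results of these data known, and list medians and counts are descriptions with no set test.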

Additional observations from a re-analysis of the deposited data

How the results depend on the processing

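Of 4 counts of called features, the total of heat ramp against control held within 1.5 times of 5375 under all alternatives but 1. With a log2 fold change of at least 1 required, 3104 were called, 1758 higher and 1346 lower. Between heat ramp and heat shock 2777 were called with that limit and 4929 without it. Under total counts 1326 were higher and 4384 lower, against 2670 and 2705, so that both of these counts moved by more than 1.5 times. With the culture as a replicate block, 5364 were called (2660 higher and 2704 lower) and 4917 between heat ramp and heat shock, and the block changed no call of the 126 genes named and tested. Without 1 library each, 5030 to 5529 were called, 2505 to 2753 higher and 2525 to 2776 lower, and 4608 to 5041 between heat ramp and heat shock.

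Total counts turned the direction of 21S_RRNA (−0.0672), ACH1 (−0.22), AIR2 (−0.43), BAP2 (−0.11), NAB3 (−0.29), RPL18B (−0.25), RRN5 (−0.18) and TFC8 (−0.46), by their own construction, since they move all features by −0.91. A further 8 named genes lost their call there. Over 71 medians of lists and classes relative to all features, 1105 values under alternatives stayed within the replicate spread, 156 moved beyond it and 7 reversed. The medians of nutrient signalling, peroxisomal genes and phospholipid synthesis, at −0.08, −0.12 and −0.09, reversed to 0.12, 0.0801 and 0.11 with a mean of at least 100 and to 0.11, 0.0721 and 0.10 with protein-coding features alone, settings that test fewer features. Phospholipid synthesis ranged from −0.164 to 0.00013 with 1 library left out, the highest without control replicate 1, and the cause was not tested. The depth, at least 22579312 counted reads a library, limits only features with few reads, such as transfer RNAs in the control.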
